A study of Artemia parthenogenetic lineage with 6 samples.

Results

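The chromatin accessibility of 4 genes of Artemia parthenogenetica was described in every peak that the deposited table assigns to them. The genes are named here by their identifiers and by 1 annotation term each: evm.TU.ctg395.6 (regulation of cell division), evm.TU.ctg38.21 (DNA binding), evm.TU.ctg921.11 (chromatin binding) and evm.TU.ctg197.4 (tubulin binding). They hold 89 of the 112790 peaks and are 4 of 12010 genes. The peaks number 8, 9, 35 and 37 in this order of genes. The annotation holds further terms for at least 1 of the genes.

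The brine shrimp Artemia can arrest its development as an encysted gastrula, a state called diapause. Embryonic diapause termination (EDT) ends this arrest. In ATAC-seq the Tn5 transposase inserts adaptors into open chromatin, so a count in a peak measures how often that stretch was reached. Whole cysts from 1 batch were sampled in diapause without treatment (ArD_0h) and 5 h after EDT (ArR_5h), with 3 biological replicates per group, all of them wild type. Both groups were rehydrated in ice-cold artificial seawater of 30‰. For reactivation, ArR_5h replicate 1 is labelled with 28 °C, replicate 2 with 29 °C and replicate 3 with 30 °C. The protocol text of the same samples has 28 °C throughout, which leaves the temperature of the latter pair unsettled. The libraries held 5239170 to 9366963 counts in peaks, which were 10.6% to 14.8% of the totals behind the deposited RPM values. This share was 10.6%, 12.96% and 12.7% in ArD_0h replicates 1 to 3. It was 14.8%, 14.6% and 13.7% in ArR_5h replicates 1 to 3, so every ArR_5h library lay above every ArD_0h library. What part this share had in the differences between the groups was not tested. A whole cyst mixes all cells of the embryo, so more open cells and more opening per cell cannot be told apart.

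Embryos in diapause do not divide, and the study lists cell division among the processes that resume after diapause termination. Cell division was not measured here. Division needs microtubules, which are polymers of tubulin and build the spindle, and tubulin-binding proteins act on these polymers. Proteins that bind DNA or chromatin include those that replicate, pack and transcribe the genome. The 4 terms are broad classes from the annotation, and the protein behind each identifier is not named by the sources used here.

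The genes had been selected on measured values of the comparison between ArR_5h and ArD_0h, and by which steps they were picked is not stated in the sources used here. The differences, calls and overlaps between the groups are therefore given as a description, and no p-value is given for any of them. A promoter peak lies within 3000 bp of the transcription start site (TSS). Among the 1526 genes with a promoter peak that was called higher and had non-overlapping groups, the strongest such peak of the 4 genes ranked 10, 26, 56 and 67 by log2 difference. Of these genes, 171 carry a function or process term in the annotation used, a copy that was cut short. Among the 171, the ranks were 1, 3, 7 and 9. The values next to the lowest of them were 1.86 for evm.TU.ctg325.23 at rank 10 and 1.84 for evm.TU.ctg564.3 at rank 11. These are 2 of 5 rankings that were tried with the 4 genes known, and 1 of the others, which required a mean level over both groups at or above the median peak, put evm.TU.ctg395.6 at rank 504 and left evm.TU.ctg921.11 out.

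All 89 peaks passed the filter on low counts. A peak was called when its adjusted p was at most 0.05 and its log2 difference above 1 in size. Of the 89 peaks, 35 were called higher in ArR_5h and 2 lower, while 52 were not called. Over all 112211 tested peaks, 14.5% were called higher and 15.2% lower. All ArR_5h libraries lay above all ArD_0h libraries in 47 of the 89 peaks and below them in 8, and the groups overlapped in 34. The shares of all tested peaks were 26.4% above and 25.7% below. The median log2 difference was 0.63 over the 89 peaks and −0.07 over all tested peaks.

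One library touches all of these values. ArD_0h replicate 1 was the lowest of its group in 64 of the 89 peaks (71.9%), against 39.3% of all tested peaks and 88.4% of peaks over a TSS. Without it, 27 of the 89 peaks were called higher and 4 lower, with 10.8% and 12.6% of all tested peaks called in these directions. ArD_0h replicate 1 also had the lowest share of its total in peaks (10.6%) of all libraries. The part of this library in the differences was not tested beyond these values.

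The 4 genes held 7 promoter peaks, of which 6 were called higher in ArR_5h. Of all promoter peaks, 18.0% were called higher and 4.81% lower. Of peaks over a TSS, 27.5% were called higher and 0.982% lower. Levels are given below as CPM, the count in a peak per 1000000 counts of the library, with the library size taken from the counts in peaks after TMM normalization.

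The gene with the term regulation of cell division, evm.TU.ctg395.6, lies on the minus strand of ctg395 from 163128 to 187790 and is 24663 bp long. Its peak over the TSS (187352 to 188079) was at 5.84, 10.7 and 9.69 CPM in ArD_0h replicates 1 to 3. In ArR_5h it was at 25.2, 19.6 and 21.2 CPM. The groups did not overlap, and the log2 difference was 1.34 ± 0.30 (SE, n = 3 per group). The second promoter peak, 1472 bp into the gene, was at 0.835, 2.45 and 1.33 CPM in ArD_0h and at 9.90, 5.43 and 5.81 CPM in ArR_5h. It was lower than the TSS peak in every library, while its log2 difference was larger (2.2 ± 0.41).

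The gene with the term DNA binding, evm.TU.ctg38.21, is the shortest of the 4 at 6472 bp (minus strand of ctg38, 1274557 to 1281028). Its only promoter peak covers the TSS (1280852 to 1281254). The ArD_0h libraries were at 1.81, 9.02 and 3.99 CPM, a wide spread in which replicate 2 was the highest. The ArR_5h libraries were at 22.6, 21.2 and 16.7 CPM, all above ArD_0h, and the log2 difference was 2.03 ± 0.37. It was 1.60 without ArD_0h replicate 1.

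No peak of the chromatin binding gene evm.TU.ctg921.11 covers its TSS (plus strand of ctg921, 1083009 to 1227488). The nearest peak lies 2078 bp into the gene and was at 2.36, 2.75 and 1.33 CPM in ArD_0h. In ArR_5h it was at 8.78, 8.62 and 6.94 CPM, with a log2 difference of 1.89 ± 0.34. It was the only 1 of the 7 promoter peaks in which ArD_0h replicate 1 was not the lowest of its group.

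The tubulin binding gene evm.TU.ctg197.4 (plus strand of ctg197, 199487 to 305500) has 3 peaks just inside its start. The first, 44 bp from the TSS, was at 2.09, 4.74 and 4.37 CPM in ArD_0h and at 13.4, 12.7 and 14.2 CPM in ArR_5h, a log2 difference of 1.86 ± 0.31. The second, between the other 2, was at 3.34, 18.2 and 15.96 CPM in ArD_0h and at 31.6, 37.3 and 26.8 CPM in ArR_5h. Its log2 difference was 1.36 ± 0.39, and 0.90 and no longer called without ArD_0h replicate 1. The third, at 1287 bp, was at 4.17, 7.34 and 7.6 CPM in ArD_0h and at 7.88, 7.91 and 6.56 CPM in ArR_5h. Here the groups overlapped and the peak was not called (0.24 ± 0.30), so neighbouring peaks of 1 promoter differed in their values.

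**Figure D1:**
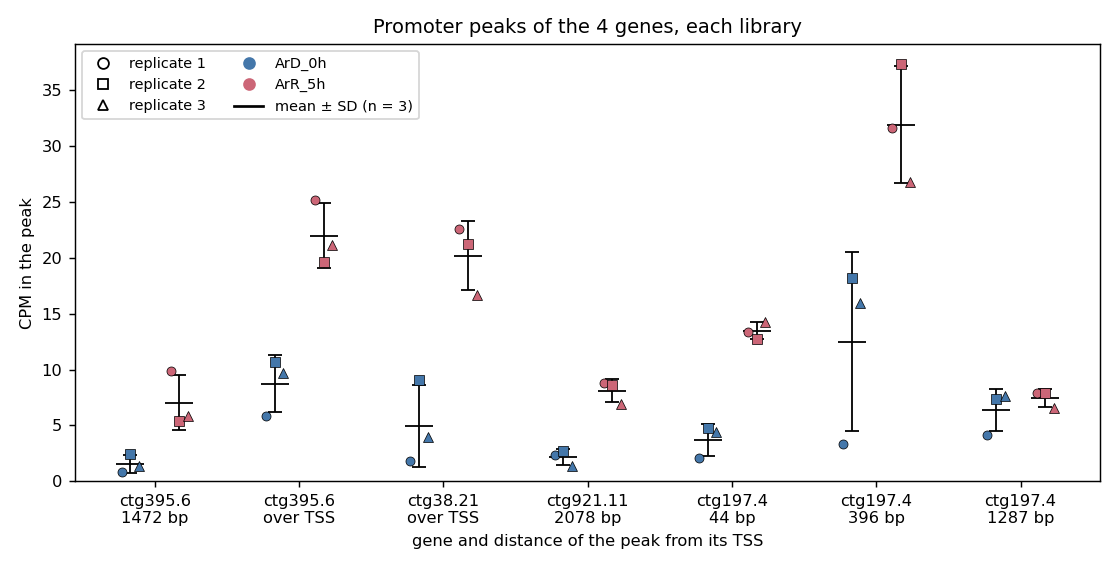
Levels of the 7 promoter peaks in CPM on a linear axis, for each of the 3 ArD_0h (blue) and 3 ArR_5h (red) libraries, with mean and SD. The groups stay apart in 6 peaks and overlap in the peak of evm.TU.ctg197.4 at 1287 bp, and the ArD_0h circle (replicate 1) is the lowest blue point in 6 of the 7 peaks.

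Beyond the promoters, 29 of 82 peaks were called higher and 2 lower, with a median log2 difference of 0.61. The peaks fall into 3 classes. Upstream of the TSS, 11 of 23 were called higher and none lower, with a median of 0.88. Over upstream peaks of all genes, 13.05% were called higher and 18.8% lower, and the median was −0.17. In the gene bodies, 9 of 36 (25%) were called higher and 2 lower, with a median of 0.53, against 16.96% higher, 11.02% lower and a median of 0.01 in all genes. Beyond the gene ends, 9 of 23 were called higher and none lower, with a median of 0.85, against 12.1% higher, 19.3% lower and a median of −0.24 in all genes.

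The genes differed in how far the differences extended. In evm.TU.ctg395.6 all 8 peaks were called higher, with log2 differences from 1.34 to 2.24. The shares called among all tested peaks were 14.5% higher and 15.2% lower. In evm.TU.ctg38.21 the count of higher peaks was 3 of 9 (33.3%) and in evm.TU.ctg197.4 it was 11 of 37 (29.7%). In evm.TU.ctg921.11 it was 13 of 35 (37.1%), beside 2 (5.71%) lower. The medians over the peaks of each gene were 1.95, 0.85, 0.58 and 0.61 in this order. Without ArD_0h replicate 1 the count of higher peaks was 7 in evm.TU.ctg197.4, and without ArR_5h replicate 1 it was 5 in evm.TU.ctg395.6 and 2 in evm.TU.ctg38.21. Without ArD_0h replicate 1 it was also 2 in evm.TU.ctg38.21, as it was without ArR_5h replicate 2.

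**Figure D2:**
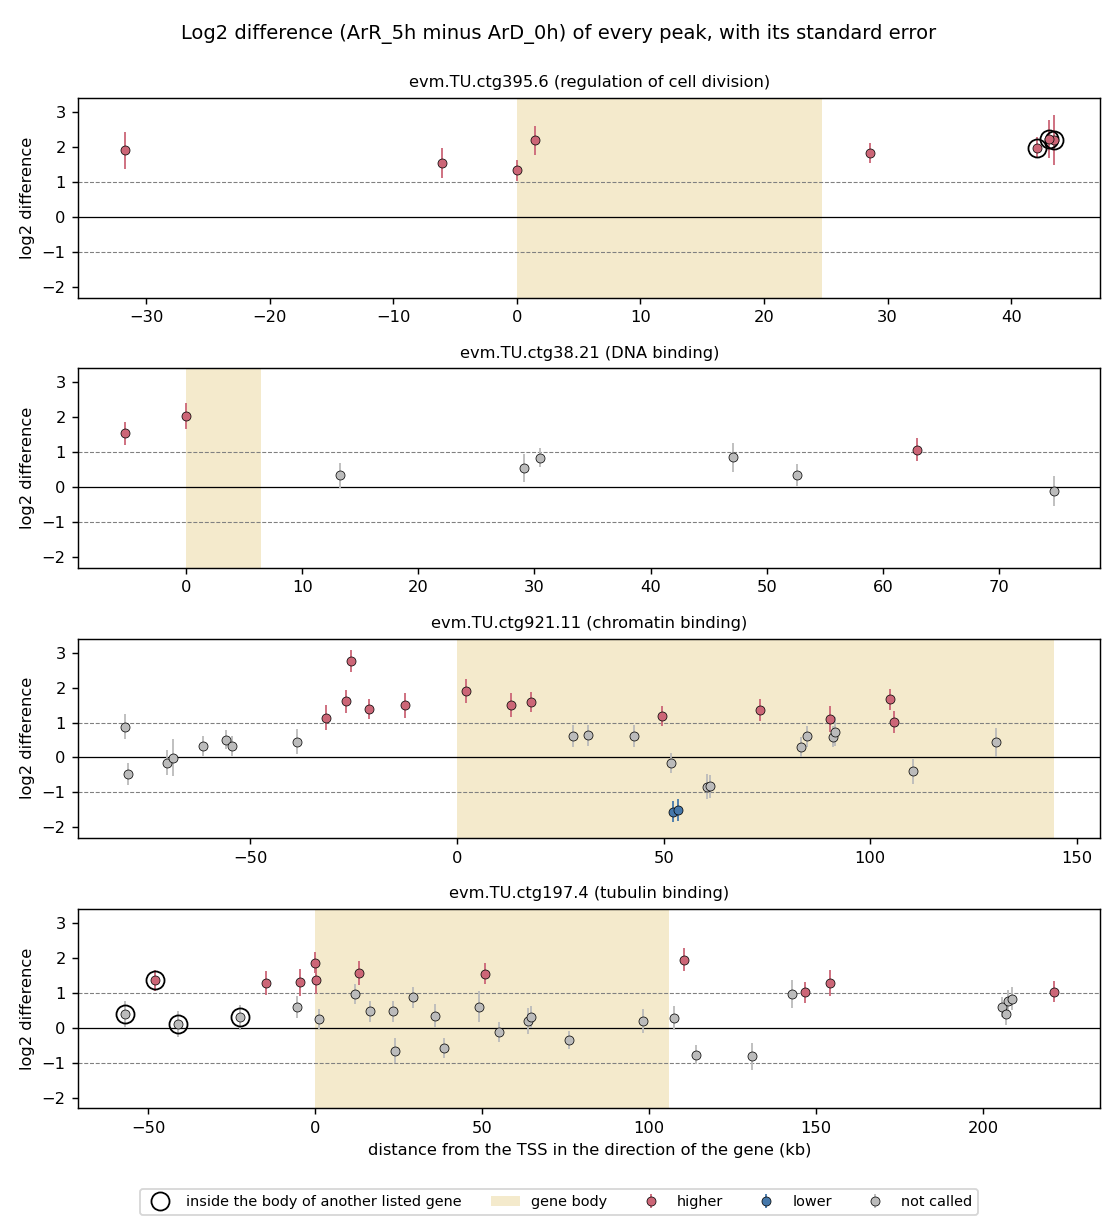
Log2 difference (ArR_5h minus ArD_0h) of each of the 89 peaks against its distance from the TSS in kb, with 1 standard error as bars. Red peaks were called higher (35), blue lower (2) and grey not called (52), the shaded stretch is the gene body, and rings mark the 7 peaks that lie inside another listed gene.

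Around evm.TU.ctg395.6 the values ran from weak to strong peaks. The strongest, 6068 bp upstream, was at 2.23, 16.2 and 15.96 CPM in ArD_0h and at 39.0, 33.9 and 27.2 CPM in ArR_5h, with ArD_0h replicate 1 far below the other 2. Its log2 difference was 1.56 ± 0.42, and 1.06 without ArD_0h replicate 1. It lost its call in the DESeq2 test and without ArR_5h replicate 1. A peak 28581 bp from the TSS, beyond the gene end, had a narrow spread, with 2.78, 3.82 and 4.37 CPM in ArD_0h and 12.8, 12.9 and 13.3 CPM in ArR_5h (1.84 ± 0.29). The weakest, at 43467 bp, had 10, 3 and 0 counts in ArD_0h and 31, 19 and 20 counts in ArR_5h. The 0 allows up to 0.570 CPM, the level of 3 counts in that library, and covers counting error only. This peak and those at 43061 and 42090 bp lie inside evm.TU.ctg395.5, a gene on the plus strand (78206 to 152731), so their assignment rests on the distance to the TSS alone. The 3 peaks assigned to evm.TU.ctg395.5 itself were not called.

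In evm.TU.ctg38.21 the peaks called higher were the TSS peak, 1 upstream and 1 beyond the gene end. The upstream peak at 5267 bp was the strongest of the gene, with 6.82, 13.1 and 16.2 CPM in ArD_0h and 38.4, 35.3 and 30.7 CPM in ArR_5h (1.54 ± 0.32). The peak at 62914 bp was at 2.504, 3.67 and 3.80 CPM in ArD_0h and at 8.44, 7.32 and 4.87 CPM in ArR_5h (1.08 ± 0.33). Its log2 difference was 0.90 without either ArD_0h replicate 1 or ArR_5h replicate 1, and it lost its call in both cases and without ArR_5h replicate 2. The other 6 peaks had log2 differences from −0.11 to 0.86, and the groups overlapped in 4 of them.

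The largest log2 difference of all 89 peaks lies 25696 bp upstream of evm.TU.ctg921.11, at ctg921 from 1057000 to 1057313. The ArD_0h libraries were at 1.67, 2.45 and 2.85 CPM and the ArR_5h libraries at 19.1, 13.1 and 14.2 CPM (2.75 ± 0.32). It is 1 of 5 consecutive upstream peaks, from 31788 to 12674 bp before the TSS, that were all called higher. The first of them lost its call without ArD_0h replicate 1 (log2 difference 0.67), without ArR_5h replicate 1 or 3 and with a trend on level removed, while the other 4 stayed called in all 12 refits. Summed over these 5 peaks, the level was 25.9 ± 10.9 CPM in ArD_0h and 77.8 ± 4.36 CPM in ArR_5h (mean ± SD, n = 3). The 3 peaks that follow, at 2078, 12982 and 17797 bp, were also called higher. Farther upstream, none of 8 peaks was called, with log2 differences from −0.46 to 0.88.

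Inside evm.TU.ctg921.11 a stretch of 9944 bp went the other way. Its 5 peaks, from 51722 to 61264 bp, all had negative log2 differences, from −0.16 to −1.55, and 2 of them were called lower. The peak at 52270 bp (1135279 to 1136010) was at 12.9, 18.5 and 22.6 CPM in ArD_0h and at 5.85, 6.02 and 6.56 CPM in ArR_5h (−1.55 ± 0.29). The peak at 53498 bp was at 7.23, 11.2 and 10.5 CPM in ArD_0h and at 4.61, 2.60 and 2.81 CPM in ArR_5h (−1.50 ± 0.32). In both peaks every ArR_5h library lay below every ArD_0h library.

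The nearest peaks on either side of this stretch were called higher, at 49504 bp (1.18 ± 0.28) and at 73352 bp (1.36 ± 0.32). The latter lies 11686 bp past the end of the stretch. With a trend on level removed, the peak at 49504 bp lost its call (0.94) and the peak at 73352 bp was just above the limit (1.006). Summed over the 5 peaks of the stretch, the level was 47.6 ± 9.94 CPM in ArD_0h and 23.0 ± 2.79 CPM in ArR_5h. Over the other 16 peaks of the gene body it was 124 ± 32.3 and 242 ± 9.35 CPM. The stretch was singled out after its values had been seen. Without ArD_0h replicate 1, which was low in most peaks, 4 of its 5 peaks were called lower.

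**Figure D3:**
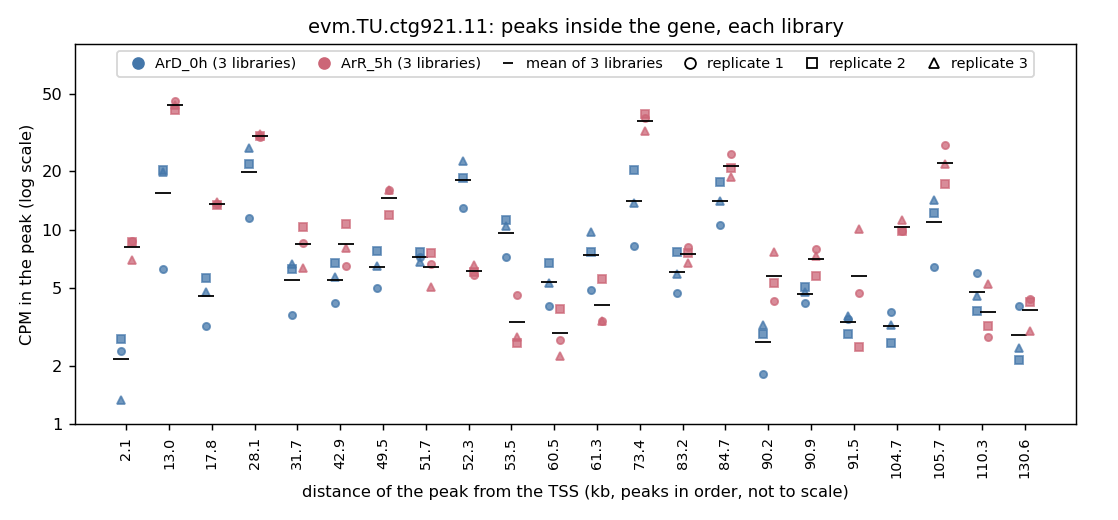
Levels of the 22 peaks inside evm.TU.ctg921.11 in CPM on a log axis, in order of distance from the TSS in kb, for each library of ArD_0h (blue) and ArR_5h (red), with black bars for the means. From 51722 to 61264 bp the ArR_5h means lie below the ArD_0h means, summing to 23.0 against 47.6 CPM.

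In evm.TU.ctg197.4 the peak with the largest log2 difference lies beyond the gene end, at 110595 bp. It was at 1.81, 2.91 and 2.09 CPM in ArD_0h and at 8.66, 11.1 and 6.37 CPM in ArR_5h (1.95 ± 0.34). The strongest peak in ArR_5h lies 4485 bp upstream, with 5.56, 28.0 and 23.8 CPM in ArD_0h and 56.5, 39.7 and 43.7 CPM in ArR_5h. Its log2 difference was 1.29 ± 0.38, and 0.84 and no longer called without ArD_0h replicate 1.

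No peak of evm.TU.ctg197.4 was called lower, against 15.2% of all tested peaks. In 5 of its 37 peaks all ArR_5h libraries lay below all ArD_0h libraries, against 25.7% of all tested peaks. One of the 5, at 38605 bp in the gene body, was at 21.0, 20.03 and 18.4 CPM in ArD_0h and at 11.1, 12.9 and 15.9 CPM in ArR_5h (−0.58 ± 0.28). Of the gene body peaks, 2 of 15 (13.3%) were called higher, at 13056 and 50934 bp. This was below the 16.96% of gene body peaks of all genes. The 4 peaks farthest upstream lie inside evm.TU.ctg197.3, a gene on the same strand (19973 to 180652), and 1 of these 4 was called higher. The 4 peaks assigned to evm.TU.ctg197.3 itself were all called lower, with a median of −1.96.

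**Figure D4:**
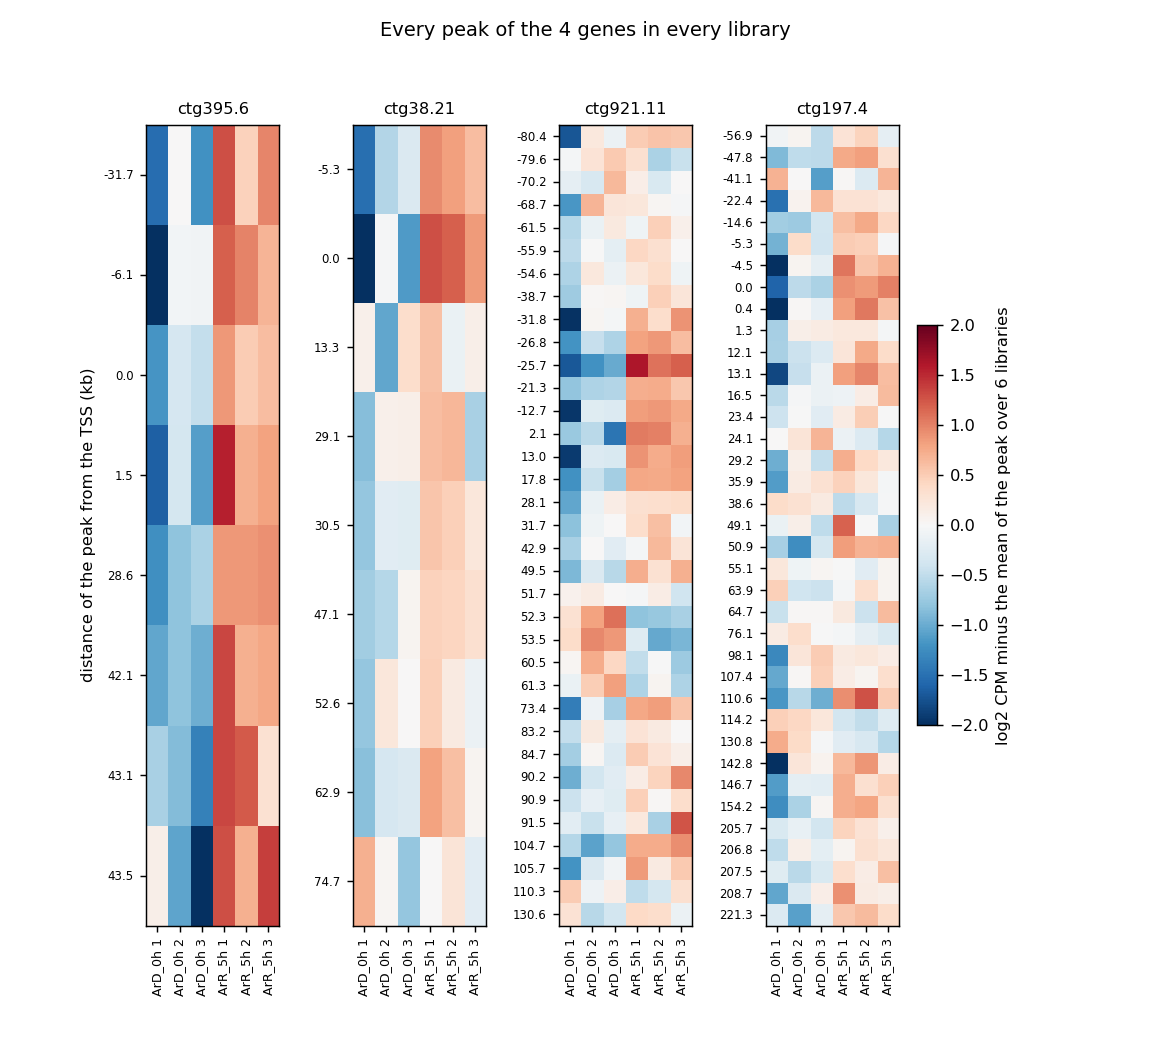
Log2 CPM of each of the 89 peaks (rows, by distance from the TSS in kb) in each of the 6 libraries (columns), minus the mean of the peak over the libraries, with values beyond the ends of the colour scale drawn in its end colours. The column of ArD_0h replicate 1 is the darkest blue of its group in many rows, as counted in the text (64 of 89), and in the rows from 51722 to 61264 bp of ctg921.11 the mean of ArR_5h is below that of ArD_0h, although the libraries overlap in the first and last of these 5 rows.

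Summed over all peaks of a gene, evm.TU.ctg395.6 was at 17.8, 40.4 and 35.9 CPM in ArD_0h and at 118, 92.9 and 89.6 CPM in ArR_5h, a ratio of means of 3.20. Of the 10409 genes with 3 or more peaks, 8 had a larger ratio, and the median ratio was 1.04. Larger ratios than in evm.TU.ctg38.21, evm.TU.ctg921.11 and evm.TU.ctg197.4 were found in 202, 964 and 1443 genes. The sums of evm.TU.ctg38.21 were 37.3, 56.9 and 58.0 CPM and 120, 109 and 88.5 CPM (ratio 2.09). For evm.TU.ctg921.11 they were 182, 317 and 307 CPM and 461, 440 and 431 CPM (ratio 1.65), and for evm.TU.ctg197.4 187, 289 and 283 CPM and 409, 384 and 360 CPM (ratio 1.52). The ArD_0h and ArR_5h sums did not overlap in any of the 4 genes, which had been selected on this comparison. The share of all genes with non-overlapping sums was not counted. Of all tested peaks, 26.4% had every ArR_5h library above every ArD_0h library and 25.7% had them below.

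Per kb of peak, the summed level in ArD_0h was 7.76 CPM for evm.TU.ctg395.6, 14.3 for evm.TU.ctg38.21, 17.2 for evm.TU.ctg921.11 and 17.9 for evm.TU.ctg197.4. In ArR_5h the order was evm.TU.ctg38.21 (29.9), evm.TU.ctg921.11 (28.5), evm.TU.ctg197.4 (27.2) and evm.TU.ctg395.6 (24.8). The levels of the 4 genes thus ran from 7.76 to 17.9 in ArD_0h and from 24.8 to 29.9 in ArR_5h. The genes had been selected on this comparison, so nothing is read from the narrower range in ArR_5h. The promoter peak of evm.TU.ctg38.21 took 4.85%, 15.9% and 6.89% of the counts of its gene in ArD_0h and 18.8%, 19.5% and 18.9% in ArR_5h. In evm.TU.ctg395.6 the promoter share was lower in ArR_5h (29.6%, 26.9% and 30.1%) than in ArD_0h (37.5%, 32.6% and 30.7%). For evm.TU.ctg921.11 the shares were 1.30%, 0.868% and 0.433% in ArD_0h and 1.91%, 1.96% and 1.61% in ArR_5h. For evm.TU.ctg197.4 they were 5.14%, 10.5% and 9.87% in ArD_0h and 12.9%, 15.1% and 13.2% in ArR_5h.

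The 2 larger genes hold many peaks for these data. More peaks than in 98.3% of genes were assigned to evm.TU.ctg921.11 and more than in 98.6% to evm.TU.ctg197.4, where the median gene has 7. The other genes of the same contigs varied. On ctg395, 38 of 85 tested peaks of other genes (44.7%) were called higher and 7 (8.24%) lower. Over all tested peaks, 14.5% were called higher and 15.2% lower. On ctg38 the counts were 29 (17.3%) and 19 (11.3%) of 168, and on ctg197 22 (23.2%) and 8 (8.42%) of 95. On ctg921, 7 of 83 (8.43%) were called higher and 14 (16.9%) lower, with a median log2 difference of −0.26. Of the genes whose peaks directly flank those described, evm.TU.ctg921.8 had 3 of 5 peaks called lower and evm.TU.ctg921.17 had 1 of 24 higher and 6 lower. On the other contigs, the flanking genes evm.TU.ctg395.9, evm.TU.ctg38.18, evm.TU.ctg38.22 and evm.TU.ctg197.14 had 1 of 4, 0 of 16, 1 of 7 and 4 of 30 peaks called higher, and 2 peaks of evm.TU.ctg197.14 were called lower.

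The gene most like each of the 4 was taken as the 1 with the smallest Euclidean distance between log2 profiles of summed counts over the 6 libraries, each centred on its own mean, among 10405 genes. Likeness therefore covers the shape of a profile and not its level. It was evm.TU.ctg887.7 for evm.TU.ctg395.6 (distance 0.17), evm.TU.ctg223.20 for evm.TU.ctg38.21 (0.093), evm.TU.ctg840.19 for evm.TU.ctg921.11 (0.058) and evm.TU.ctg405.19 for evm.TU.ctg197.4 (0.039). The second most alike were evm.TU.ctg396.30, evm.TU.ctg279.18, evm.TU.ctg592.5 and evm.TU.ctg289.12. The named genes were not alone in this likeness. Within a set distance, wider than those above and the same for each gene, lay 27 genes for evm.TU.ctg395.6 and 677 for evm.TU.ctg38.21. There were 1372 for evm.TU.ctg921.11 and 2023 for evm.TU.ctg197.4. Among the 4 genes themselves, evm.TU.ctg921.11 and evm.TU.ctg197.4 were closest (0.22) and evm.TU.ctg395.6 and evm.TU.ctg197.4 farthest apart (1.43).

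Other genes with related terms were counted from the annotation that the study listed. The copy used was cut short, so each list may lack genes. The study chose the annotated genes partly on these ArD_0h and ArR_5h libraries, so they are not independent evidence of a direction. A gene may be in several lists. Over all tested peaks 14.5% were called higher and 15.2% lower, and over all promoter peaks 18.0% and 4.81%. Of the 13 other genes with division, cell cycle or DNA replication terms, 49 of 157 peaks (31.2%) were called higher and 11 (7.01%) lower. None of their 8 promoter peaks was called. The largest promoter value was 0.91 ± 0.33 in evm.TU.ctg223.20, which also carries the term cell division. The lowest was −0.67 ± 0.41 in evm.TU.ctg929.3, which carries the term cell cycle checkpoint. The next values in each direction were 0.83 ± 0.32 in evm.TU.ctg441.10 and −0.29 ± 0.36 in evm.TU.ctg811.18.

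Of the 67 other DNA binding genes, 320 of 961 tested peaks (33.3%) were called higher and 63 (6.56%) lower. Of their promoter peaks, 32 of 70 were called higher and none lower. The TSS peak of evm.TU.ctg406.5, which also carries the term chromatin binding, was at 2.23, 5.81 and 7.79 CPM in ArD_0h and at 16.99, 19.1 and 18.0 CPM in ArR_5h (1.80 ± 0.34). Next to it stood the TSS peak of evm.TU.ctg395.25 (1.76 ± 0.32). The promoter of evm.TU.ctg561.33, annotated with DNA topoisomerase II activity, an activity that untangles DNA strands, held 3 peaks with unlike values. Its TSS peak was called higher (1.55 ± 0.30), with 8.76, 14.7 and 12.7 CPM in ArD_0h and 39.7, 33.5 and 32.6 CPM in ArR_5h. A weaker peak upstream, at −1236 bp, had the lowest promoter value of the list, −0.48 ± 0.35, and was not called. The next lowest was −0.13 ± 0.36 in evm.TU.ctg525.3.

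Among 8 other chromatin genes, 44 of 156 peaks (28.2%) were called higher and 11 (7.05%) lower, with 7 of 12 promoter peaks higher. One of them was a peak of evm.TU.ctg662.4, which carries the term SAGA complex, a histone acetyltransferase complex (1.57 ± 0.37). A second promoter peak of evm.TU.ctg406.5, at 1126 bp, was at −0.12 ± 0.29 and not called. Among 6 other tubulin and microtubule genes, 28 of 90 peaks (31.1%) were called higher and 3 (3.33%) lower, with 2 of 4 promoter peaks higher. These were peaks of evm.TU.ctg29.4 (1.22 ± 0.32) and evm.TU.ctg674.9 (1.12 ± 0.33). A list of gap junction or electron carrier terms, kept for comparison, matched 6 genes, 5 of them outside the 4 described. Of the peaks of these 5, 13 of 66 (19.7%) were called higher and 4 (6.06%) lower, against 14.5% and 15.2% of all tested peaks. Of their promoter peaks, 2 of 3 were called higher. These 2 were peaks of evm.TU.ctg58.11 (1.33 ± 0.39) and evm.TU.ctg342.6_evm.TU.ctg342.7 (1.32 ± 0.51). The others, evm.TU.ctg237.7, evm.TU.ctg343.15 and evm.TU.ctg660.2, had no promoter peak, and 1 of 9, 3 of 14 and 0 of 1 of their peaks were called higher.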

How the data were processed

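ATAC-seq libraries of whole cysts were compared between ArD_0h and ArR_5h (3 each), grouped by their labels. Per the labels, the authors used BWA and MACS2. The study's methods describe adaptor trimming, mapping to an A. franciscana assembly, removal of low-quality, mitochondrial and duplicate reads, and peak calling. Coordinates are those of the deposited table. A shift for the Tn5 offset is not given in the sources used here. The deposited counts are whole numbers per merged peak and library. The RPM values deposited by the authors were used only to recover library totals. No deposited sample column was left unmatched.

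The quasi-likelihood test of edgeR 4.0.16 (in R 4.3.3) was run on the counts, with TMM scaling, filterByExpr and no replicate block, and p-values were adjusted by Benjamini-Hochberg over all tested peaks. The procedure was first tested on simulated data. Each SE was obtained as the size of the log2 difference over the root of its F value. Profiles used log2 CPM with a prior count of 2. Alternatives were other scalings, no filter, DESeq2 1.42.0, a replicate block and leaving out each library. Named genes were the 4 genes, the 2 most alike of each, the genes whose peaks flank them, and from each list the 2 with the largest promoter difference in each direction (every gene of a list of 5 or fewer). The genes next to the 4 in the ranking, the TSS peak of evm.TU.ctg561.33 and the stretch inside evm.TU.ctg921.11 fall outside this rule and were chosen after their values were seen. Members and lists were chosen with earlier results of these data known. The conditions used to rank the 4 genes among others were likewise set with those genes known, and 5 were tried. The replicates came from 1 batch of cysts, so the spread between them may be narrower than between batches.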

Additional observations from a re-analysis of the deposited data

How the results depend on the processing

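Over 12 refits, no called peak of the 4 genes changed direction, and 23 of the 37 called peaks, with 4 of the 6 called promoter peaks, were called in every refit. Leaving out 1 library gave 26 to 39 peaks called higher, 2 to 4 called lower and 5 to 6 promoter peaks called higher. The count of lower peaks was 4 without ArD_0h replicate 1, where the count of higher peaks was 27. The lowest count of higher peaks came without ArR_5h replicate 1, where evm.TU.ctg395.6 had a count of 5. That refit also had fewer calls over all peaks (10.1% higher and 8.49% lower). With a trend on level removed, 30 peaks were called higher and the TSS peak of evm.TU.ctg395.6 was just under the limit (0.998). Scaling by the totals behind the RPM values called 37 higher and 2 lower, moved the median of all peaks by 0.16 on the log2 scale and raised the share of higher among all called peaks from 48.8% to 64%. With DESeq2 the counts were 35 and 2. Without a limit on size, 40 and 3 were called, and within 1000 bp of the TSS 4 promoter peaks were called higher. The replicate numbers did not pair the libraries (correlations of −0.21, 0.00 and −0.15), and with a replicate block 37 were called higher, 2 lower and 6 in promoters. Peaks under about 1 CPM rest on few counts, as in the weakest peak of evm.TU.ctg395.6.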
